A study of Mus musculus with 9 samples.

Results

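The genes described here are 10 mouse genes of serine, one-carbon, asparagine and proline synthesis: Phgdh, Psat1, Psph, Shmt1, Shmt2, Mthfd2, Mthfd1l, Aldh1l2, Asns and Pycr1. They were taken by gene name from the deposited gene table, in which 10 of 28379 genes carry these names, and all 10 passed the filter on low counts. Primary bone marrow-derived macrophages (BMDMs), the precursors that the cytokine RANKL turns into osteoclasts, were isolated from C57BL/6 mice (C57BL/6J in the study's methods) and sequenced after 48 h in 3 groups of 3 libraries. All groups received M-CSF (20 ng/ml), the growth factor that keeps macrophages alive. Cells of the PBS group were given nothing else, and those of the RANKL group were also given RANKL (100 ng/ml). The third treatment, RANKL + Vit D + K, combined the same RANKL dose with vitamin D as calcitriol (1000 nM), its active hormone, and vitamin K as menaquinone-4 (MK4), for which the labels give 20 μM and the study's methods a higher dose. No library used here was given the vitamins without RANKL, or 1 vitamin alone. The methods speak of pooled RNA, and nothing says which replicates came from separate cultures or mice, so the p-values measure the spread between these libraries, which may be technical.

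Serine is made from the glycolytic intermediate 3-phosphoglycerate by the enzymes PHGDH, PSAT1 and PSPH in that order. Serine hydroxymethyltransferases then move a carbon from serine onto folate, and MTHFD2 and MTHFD1L pass that carbon along the mitochondrial branch of the folate cycle. The folate cycle feeds purine and thymidylate synthesis. ALDH1L2, in the same branch, oxidises formyl-tetrahydrofolate instead. Asparagine synthetase makes asparagine from aspartate and glutamine, and PYCR1 performs the last step of proline synthesis in mitochondria. The genes for many of these enzymes are known targets of ATF4, the transcription factor of the integrated stress response, which binds with C/EBP proteins such as CHOP (encoded by Ddit3) to composite sites.

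For 9 of the 10 genes RefSeq (build GRCm38.p6) gave a promoter window of 250 bases before and 50 bases after the start of a transcript, 10 windows in all because Psat1 had 2. On both strands of these windows the core of the composite C/EBP-ATF site, TGATGNAA, and the E-box CACGTG, the site of MYC and related factors, were searched; the motifs do not overlap each other. TGATGNAA was found in 2 of the 9 genes with a window, Asns and Pycr1, and in 3.97% of all 32851 RefSeq windows of the same length. CACGTG was found in 0 of the 9 genes and in 7.15% of all windows. A match says only that these letters are present, and its absence only that they are not in this window. The 250 bases before the start are shown for the 2 genes with a match and for Phgdh, the gene with the largest fitted change with the vitamins over RANKL, with the match in capitals; all 3 are on the minus strand and read 5′ to 3′.
Asns, chr6:7693210-7693459: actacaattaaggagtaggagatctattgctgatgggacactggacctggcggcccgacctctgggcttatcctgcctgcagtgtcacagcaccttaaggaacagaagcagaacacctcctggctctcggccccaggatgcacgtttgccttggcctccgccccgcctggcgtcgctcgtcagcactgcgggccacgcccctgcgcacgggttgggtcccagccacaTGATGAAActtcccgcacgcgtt
Pycr1, chr11:120643749-120643998: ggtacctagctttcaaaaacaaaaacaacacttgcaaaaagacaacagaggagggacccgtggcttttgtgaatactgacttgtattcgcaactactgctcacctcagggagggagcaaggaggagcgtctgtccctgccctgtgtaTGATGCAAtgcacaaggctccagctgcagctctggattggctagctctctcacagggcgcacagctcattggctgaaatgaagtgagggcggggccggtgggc
Phgdh, chr3:98339970-98340219: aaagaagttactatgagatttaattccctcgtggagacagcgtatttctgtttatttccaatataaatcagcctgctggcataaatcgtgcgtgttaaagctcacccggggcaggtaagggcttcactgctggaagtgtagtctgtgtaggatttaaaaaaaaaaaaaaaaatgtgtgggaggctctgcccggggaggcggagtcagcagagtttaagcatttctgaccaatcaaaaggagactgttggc
The match in Asns was TGATGAAA, with its first base at -23 from the start, and that in Pycr1 was TGATGCAA, with its first base at -103. These positions are counted from RefSeq's start, which for Pycr1 is that of the deposited table. For Asns it lies 45 bases inside the gene as the table gives it, so that the match is inside the printed gene, and for Phgdh 21 bases inside. The starts of the 2 Psat1 windows lie 22278 and 22715 bases inside.

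The 9 libraries were nearly equal in depth, with 65915112 to 68229647 counts each. Summed FPKM (fragments per unit of transcript length, relative to the library total) of 7 macrophage markers was 26283 to 30490 in the PBS group, 16600 to 24185 in the RANKL group and 4485 to 11507 with RANKL + Vit D + K. Lyz2 made up most of it, and the other 6 summed to 2102 to 2251, 1598 to 1966 and 1296 to 1339. With the vitamins over RANKL 5 of the 7 fell and 1 rose, where 17.2% of all genes tested fell and 16.4% rose. The corresponding sums of 7 osteoclast markers were 19.9 to 26.0, 462 to 965 and 36.2 to 80.6. Markers of stromal, lymphoid, dendritic and erythroid cells, each list taken alone, summed to less than 1 FPKM in every library. Markers of neutrophils and their precursors summed to 11.1 to 128 in the PBS group, 11.3 to 148 in the RANKL group and 0.551 to 1.72 with RANKL + Vit D + K. In bulk RNA, fewer cells of a type and less RNA per cell cannot be told apart. RANKL replicate 2 stood apart from replicates 1 and 3 for these genes: it had the highest FPKM of the group for 10 of the 10 members, against 35.7% of all tested genes. It also had the highest summed FPKM of 10 proliferation genes in its group (315, against 87.9 and 91.5). RANKL + Vit D + K replicate 2 stood apart as well: by FPKM and by CPM it was the highest of its group for 7 of the 10 members. It was the highest by CPM for 44.5% of all tested genes, and its macrophage sum was the 11507 given above.

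With the vitamins, 8 of the 10 genes rose over RANKL and 0 fell (edgeR's quasi-likelihood test, Benjamini-Hochberg adjusted p under 0.05 over 17002 genes), where 16.4% of all genes tested rose, 17.2% fell and 33.7% did either. In 9 of the 10, all members but Shmt1, every RANKL + Vit D + K library lay above every RANKL library, as in 21.5% of all genes. The median log2 fold change of the 10 genes was 2.14, beside -0.044 over all genes tested. By edgeR's fitted values the largest changes were those of Phgdh, Asns and Aldh1l2, and the cytosolic Shmt1 and the low Pycr1 did not pass the test. Among all called genes, 48.8% were higher with the vitamins; limma on log2(FPKM + 0.1) gave 36.2% and moved the median of all genes to -0.17, and it called 9 of the 10 members higher and 0 lower.

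**Figure D1:**
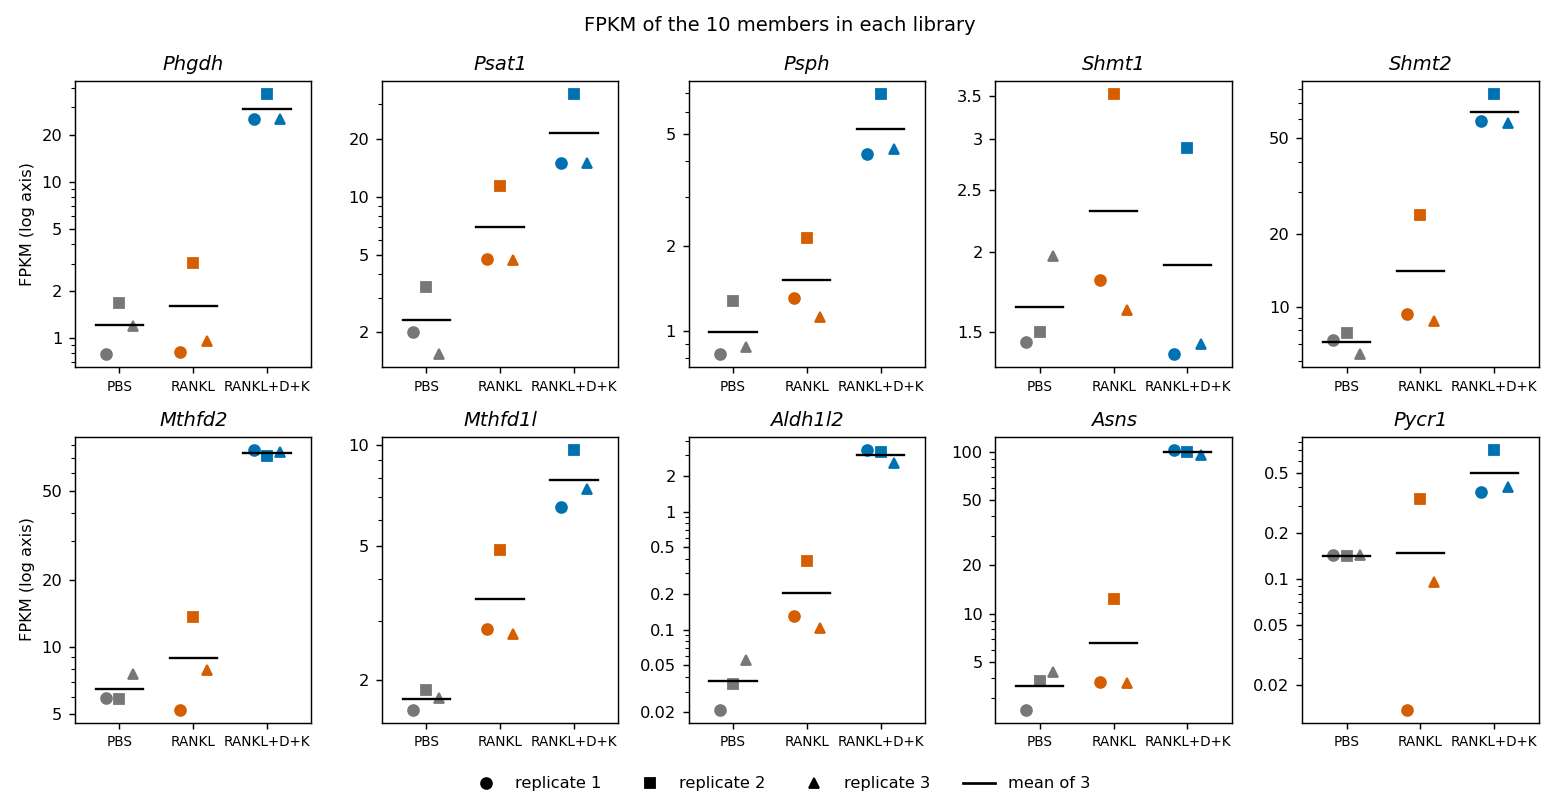
FPKM of each of the 10 genes (log axis, a different scale in each panel) in the PBS, RANKL and RANKL + Vit D + K libraries, with the shape giving the replicate number and the bar the mean of 3. In 9 panels the 3 RANKL + Vit D + K libraries lie above all others, Shmt1 is the exception, and RANKL replicate 2 is the highest RANKL library in every panel.

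The serine synthesis enzymes rose together. Phgdh (ENSMUSG00000053398, chr3:98313170-98339990, minus strand) encodes the dehydrogenase that commits 3-phosphoglycerate to serine. Its FPKM was 0.791, 1.67 and 1.19 in PBS replicates 1 to 3, 0.809, 3.02 and 0.952 in RANKL, and 25.2, 36.4 and 25.4 in RANKL + Vit D + K. The PBS and RANKL values overlapped, and the lowest vitamin library was well above the highest RANKL library. The mean thus went from 1.59 ± 1.24 (SD, n = 3) to 29.0 ± 6.43 FPKM with the vitamins, a log2 fold change of 4.35 ± 0.498 (SE) with an adjusted p of 0.000773 by edgeR's quasi-likelihood test.

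Psat1 (chr19:15904678-15947337, minus strand), the aminotransferase of the second step, had 2.0, 3.43 and 1.55 FPKM in PBS, 4.79, 11.4 and 4.70 in RANKL, and 14.9, 34.0 and 15 in RANKL + Vit D + K. The 3 groups did not overlap and formed a staircase, although replicate 2 was more than double the other replicates in both RANKL groups. With the vitamins Psat1 rose over RANKL by 1.74 ± 0.422 on the log2 scale (edgeR's adjusted p = 0.0134). This call was lost without RANKL replicate 1 (1.55, adjusted p = 0.0584) or RANKL replicate 3 (1.55, adjusted p = 0.0554), and over all alternatives the adjusted p ranged from 4.45e-05 to 0.0584. Psph (chr5:129765558-129787449, minus strand), the phosphatase of the last step, had 0.827, 1.28 and 0.873 FPKM in PBS, 1.31, 2.13 and 1.12 in RANKL, and 4.26, 6.94 and 4.44 with the vitamins. PBS and RANKL overlapped and the vitamin libraries were above both. Psph rose by 1.92 ± 0.265 (edgeR's adjusted p = 0.00146). Psph shares 452 bases with Cct6a, a gene on the opposite strand whose mean FPKM was 29.0 in RANKL and 34.6 with the vitamins, and the sources used here do not say whether the counting used strand.

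The serine hydroxymethyltransferases parted. Shmt2 (chr10:127517123-127522444, minus strand), the mitochondrial enzyme, had 7.34, 7.83 and 6.39 FPKM in PBS, 9.33, 24.1 and 8.76 in RANKL, and 59.0, 76.3 and 58.0 in RANKL + Vit D + K. The groups did not overlap, and RANKL replicate 2 lay between the other RANKL libraries and the vitamin libraries. With the vitamins Shmt2 rose by 2.36 ± 0.328 (edgeR's adjusted p = 0.00149). Shmt1 (chr11:60788104-60811265, minus strand), the cytosolic enzyme, had 1.45, 1.5 and 1.97 FPKM in PBS, 1.81, 3.53 and 1.63 in RANKL, and 1.39, 2.91 and 1.44 with the vitamins. All 3 groups overlapped, and replicate 2 was the highest in both RANKL groups. The log2 fold change of Shmt1 with the vitamins was -0.14 ± 0.329 (edgeR's adjusted p = 0.771), which neither shows a change nor that there was none, and it turned to 0.23 without RANKL replicate 2. It shares 184 bases with Smcr8 on the opposite strand, which had a mean FPKM of 22.3 in PBS, 18 in RANKL and 23.7 with the vitamins.

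The mitochondrial folate enzymes rose to very different levels. Mthfd2 (chr6:83305691-83317606, minus strand), the dehydrogenase and cyclohydrolase, had 5.94, 5.87 and 7.57 FPKM in PBS, 5.25, 13.7 and 7.85 in RANKL, and 76.7, 71.5 and 74.6 in RANKL + Vit D + K. The vitamin libraries stood close together and far above the rest, while PBS and RANKL overlapped. Mthfd2 rose with the vitamins by 3.23 ± 0.302 (edgeR's adjusted p = 0.000371). It shares 2799 bases with Gm43890 on the same strand, which had a mean FPKM of 0.196 in PBS, 0.152 in RANKL and 0.693 with the vitamins. Mthfd1l (chr10:3973118-4167081, plus strand), the enzyme that releases formate, had 1.63, 1.86 and 1.76 FPKM in PBS, 2.83, 4.87 and 2.74 in RANKL, and 6.53, 9.70 and 7.39 with the vitamins. Its groups did not overlap, and its rise over RANKL, 1.33 ± 0.203, was the smallest of the 8 called genes (edgeR's adjusted p = 0.0022).

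Aldh1l2 (chr10:83487450-83534140, minus strand) encodes the mitochondrial enzyme that oxidises formyl-tetrahydrofolate and yields NADPH. It had 0.0212, 0.0350 and 0.0552 FPKM in PBS, 0.131, 0.384 and 0.105 in RANKL, and 3.35, 3.18 and 2.59 in RANKL + Vit D + K. The counts behind these values were 12, 21 and 31, then 75, 217 and 62, then 1880, 1840 and 1450. The gene was thus barely detected in PBS, and no group overlapped another. With the vitamins it rose over RANKL by 4.04 ± 0.495 (edgeR's adjusted p = 0.000956) and over PBS by 6.34 ± 0.565 (edgeR's adjusted p = 0.000211). It shares 1056 bases with D10Wsu102e on the opposite strand, which had a mean FPKM of 0.279 in PBS, 0.365 in RANKL and 0.436 with the vitamins.

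Asns (chr6:7675169-7693254, minus strand), asparagine synthetase, whose upstream sequence with the TGATGAAA match is shown above, reached the highest level of the 10 genes. Its FPKM was 2.56, 3.82 and 4.36 in PBS, 3.78, 12.4 and 3.71 in RANKL, and 103, 99.6 and 95.8 in RANKL + Vit D + K. The vitamin libraries were nearly equal, PBS and RANKL overlapped, and RANKL replicate 2 was again the highest of its group. Asns rose with the vitamins by 4.09 ± 0.459 (edgeR's adjusted p = 0.00074). Pycr1 (chr11:120635712-120643748, minus strand), the other gene with a match, stayed low throughout: its FPKM was 0.142, 0.141 and 0.144 in PBS, 0.0138, 0.338 and 0.0950 in RANKL, and 0.375, 0.708 and 0.401 with the vitamins. The RANKL libraries held only 5, 101 and 30 counts and scattered on both sides of PBS, and all vitamin libraries were higher. Its log2 fold change over RANKL was 1.86 ± 0.771 and did not pass (edgeR's adjusted p = 0.0917). It passed without RANKL replicate 2 (3.18, adjusted p = 0.0143), with DESeq2 (adjusted p = 0.0437) with limma on log2(FPKM + 0.1) (adjusted p = 0.0435) or log2(FPKM + 1) (adjusted p = 0.0374) and without replicate 2 of every group (adjusted p = 0.0157), within a range of 0.0143 to 0.23 over all alternatives.

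**Figure D2:**
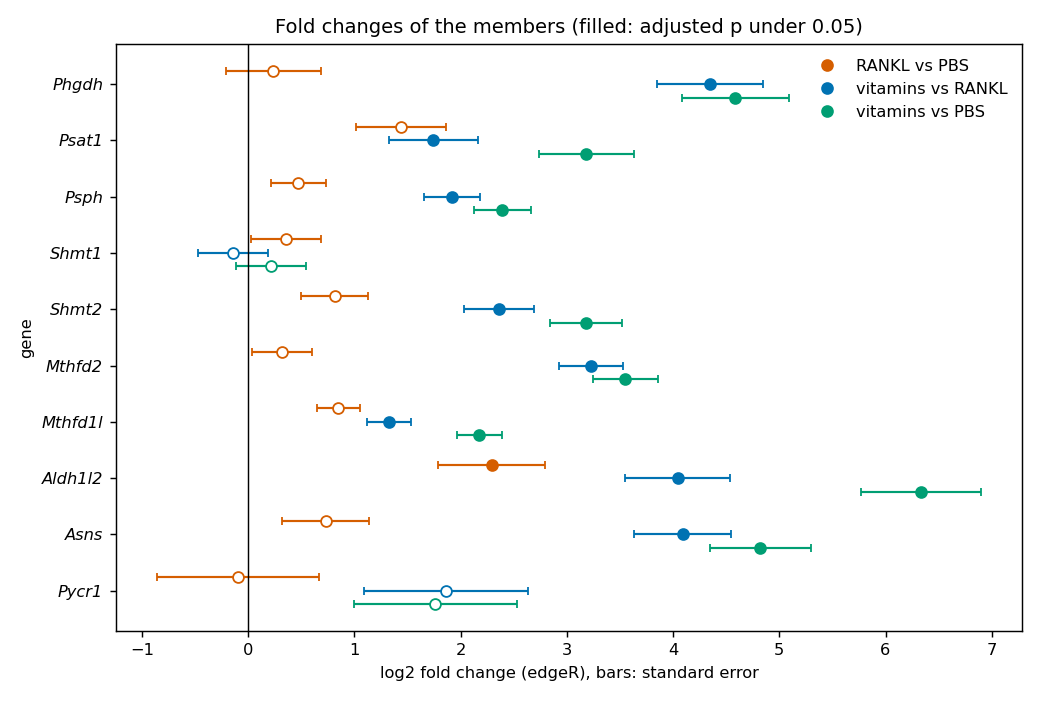
Log2 fold change (edgeR, bars are standard errors) of the 10 genes in the 3 comparisons, filled where the adjusted p was under 0.05. Blue and green points, both with the vitamins, are filled for all genes but Shmt1 and Pycr1, and of the orange points, RANKL against PBS, that of Aldh1l2 alone is filled.

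RANKL without vitamins gave fewer calls among these genes, and the difference between the comparisons, which share the RANKL libraries, was not tested. Over PBS, 1 of the 10 rose, Aldh1l2, and 0 fell, where 2.35% of all genes tested rose, 1.26% fell and 3.61% did either. In 4 of the 10 (Psat1, Shmt2, Mthfd1l and Aldh1l2) every RANKL library lay above every PBS library, as in 15.7% of all genes. The median log2 fold change of the 10 was 0.60, beside -0.043 over all genes. Aldh1l2 rose by 2.29 ± 0.501 (edgeR's adjusted p = 0.043), a call that was lost without any 1 of PBS replicates 1, 2 and 3, RANKL replicates 1 and 2 or RANKL + Vit D + K replicate 3, with adjusted p-values of 0.0672 to 0.161. It was lost too with only the 2 groups compared (0.0518), without a filter on low counts (0.0644), with limma on log2(FPKM + 0.1) (0.143) or log2(FPKM + 1) (0.369), with the replicate block and without replicate 2 of every group (0.0611), within a range of 0.000107 to 0.369 over all alternatives.

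Same-numbered PBS and RANKL libraries deviated together, so a fit with the replicate number as a block stands beside these calls. The block was fitted to all 9 libraries. It therefore also spanned the RANKL + Vit D + K libraries, whose numbers were not taken to pair them with the others. With this block, 2 of the 10 rose over PBS, as did 3.16% of all genes tested. Psat1 passed (1.41, adjusted p = 0.00334) where it had not without the block (1.44 ± 0.421, edgeR's adjusted p = 0.101). Mthfd1l also passed (0.82, adjusted p = 0.0344, against 0.85 ± 0.202 and 0.0538 without the block), and Aldh1l2 no longer did (2.18, adjusted p = 0.0605). Over all alternatives the adjusted p ranged from 0.00217 to 0.347 for Psat1 and from 0.0032 to 0.193 for Mthfd1l.

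The other 7 genes did not pass over PBS under either fit. Shmt2 had a log2 fold change of 0.82 ± 0.315 (edgeR's adjusted p = 0.205), Asns 0.73 ± 0.411 (0.395), Psph 0.47 ± 0.259 (0.379), Shmt1 0.35 ± 0.329 (0.633), Mthfd2 0.32 ± 0.279 (0.607), Phgdh 0.24 ± 0.446 (0.84) and Pycr1 -0.10 ± 0.761 (0.966). Without RANKL replicate 2, the values of Phgdh (-0.54), Mthfd2 (-0.066), Shmt1 (-0.019) and Asns (-0.021) fell below 0, so their positive values rested on that library. Without replicate 2 of every group, a fit chosen after the data were seen, 2 of the 10, neither of them Aldh1l2, rose with RANKL over PBS, as did 5.73% of all genes tested, and 9 of the 10 with the vitamins over RANKL, as did 24.6%.

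Against PBS, the RANKL + Vit D + K group had 8 of the 10 genes higher and 0 lower, where 19.8% of all genes tested were higher and 40.8% were higher or lower. In 9 of the 10 every RANKL + Vit D + K library lay above every PBS library, as in 24.1% of all genes. This comparison shares its libraries with the other comparisons and is not separate evidence. The log2 fold changes were 6.34 for Aldh1l2, 4.82 for Asns, 4.59 for Phgdh, 3.55 for Mthfd2, 3.19 for Psat1, 3.18 for Shmt2, 2.39 for Psph and 2.18 for Mthfd1l, with edgeR's adjusted p-values of 0.000207 to 0.000959. Shmt1 (0.21, adjusted p = 0.64) and Pycr1 (1.76, adjusted p = 0.0953) did not pass edgeR's test.

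The order of the genes by level also differed between groups. In PBS the mean FPKM was highest for Shmt2 (7.19 ± 0.727) and Mthfd2 (6.46 ± 0.964), whose libraries overlapped, and then for Asns (3.58 ± 0.923), which lay below both. With RANKL the order was Shmt2, Mthfd2, Psat1 and Asns, each overlapping the next. With the vitamins Asns came first (99.5 ± 3.63), above every library of Mthfd2 (74.3 ± 2.6), while Mthfd2 and Shmt2 (64.4 ± 10.3) overlapped. Below them Phgdh (29.0 ± 6.43) and Psat1 (21.3 ± 11) overlapped each other, as did Mthfd1l (7.87 ± 1.64) and Psph (5.21 ± 1.5), and then Aldh1l2 (3.04 ± 0.401) and Shmt1 (1.91 ± 0.864). Pycr1 (0.495 ± 0.185) was last. Phgdh overlapped Shmt1 in PBS and in RANKL and lay above every Shmt1 library with the vitamins.

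The ratios of 4 members to a relative were compared. The relatives Shmt1, Mthfd1 and Aldh1l1 encode cytosolic enzymes, and Mthfd2l, like Mthfd2, a mitochondrial one. Both FPKM values of a ratio come from the same library. On the scale of log2 of the ratio with 0.1 added to each FPKM, all 4 ratios were higher in every RANKL + Vit D + K library than in every RANKL library. Exact two-sided permutation tests of 3 libraries against 3 (n = 3 a group) gave p = 0.1 for each, the smallest p that this design allows, and 0.15 after adjustment over the 12 ratio tests. Between RANKL and PBS all 4 ratios overlapped, with differences of 0.078 to 0.39 and exact permutation p-values of 0.2 to 0.6.

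Aldh1l2 over Aldh1l1, its cytosolic counterpart, was below 0 in RANKL and above it with the vitamins. The log2 ratio was -4.29, -3.07 and -3.93 in RANKL replicates 1 to 3 and 1.71, 1.14 and 1.28 in RANKL + Vit D + K, a difference of 5.14. This size depended on the value added to each FPKM: it was 5.80 with 0.01 and 2.92 with 1. The sign changed in all 3 vitamin libraries, and Aldh1l1 itself fell with the vitamins, from 3.80 ± 0.708 to 1.12 ± 0.239 FPKM (n = 3), or -1.63 ± 0.235 on the log2 scale (edgeR's adjusted p = 0.00172). Shmt2 over Shmt1 had log2 ratios of 2.30, 2.74 and 2.36 in RANKL and 5.31, 4.67 and 5.24 with the vitamins, a difference of 2.61. Mthfd2 over Mthfd2l, a mitochondrial paralogue, went from 3.16, 4.33 and 4.23 to 6.90, 6.43 and 6.71, a difference of 2.77.

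Mthfd1l over Mthfd1, the cytosolic trifunctional enzyme, went from -1.0, -0.95 and -0.87 to 0.26, -0.017 and 0.36, a difference of 1.14. Mthfd1 itself was 6.79 FPKM on average in RANKL and 7.0 with the vitamins, and its log2 fold change of 0.18 did not pass (edgeR's adjusted p = 0.584). A ratio shows that a pair changed unequally, and which of the pair changed has to be read from each gene's own values.

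**Figure D3:**
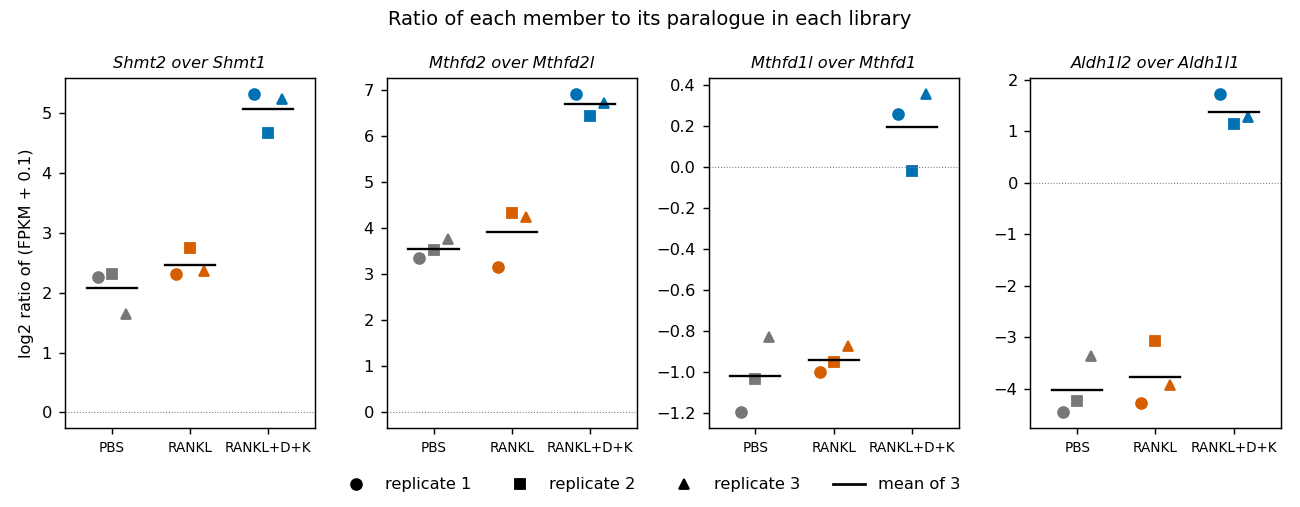
Log2 ratio of (FPKM + 0.1) of each of 4 members to its paralogue in each library (a different scale in each panel), with the shape giving the replicate number and the bar the mean of 3. In all 4 panels the RANKL + Vit D + K libraries lie above all RANKL and PBS libraries, and in the Aldh1l2 and Mthfd1l panels, unlike for RANKL and PBS, their mean lies above 0, where the member's level exceeds that of its relative.

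The neighbouring steps of these pathways changed in both directions. Of 60 other genes of the folate cycle, glycine cleavage, the methionine cycle, purine synthesis, proline, glutamate and aspartate metabolism, carriers and serine use, 53 were tested. With the vitamins 16 rose over RANKL and 12 fell, where 16.4% of all genes tested rose, 17.2% fell and 33.7% did either, and the lists within them are to be read against the same shares. Of these 28 calls 10 held with each library left out in turn, and 12 were made with only the 2 groups compared and 11 without RANKL replicate 1 or RANKL + Vit D + K replicate 1 or 3. The balance turned with limma, which called 9 higher and 15 lower on log2(FPKM + 0.1) and 9 and 14 on log2(FPKM + 1). In edgeR's fit the median log2 fold change of the 53 genes was 0.077 beside 2.14 for the 10 members. With RANKL over PBS 1 of the 53 rose and 0 fell, where 2.35% of all genes rose and 1.26% fell, so the count was near the background. The gene was Atic, the last enzyme of purine synthesis (0.98 ± 0.16, edgeR's adjusted p = 0.0148), and its call was lost without any 1 of the PBS replicates. With the replicate block 4 rose, as did 3.16% of all genes.

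Among 11 tested folate cycle enzymes, 3 rose and 2 fell with the vitamins over RANKL. Mthfs (0.89) and its relative Mthfsl (0.79) rose and Aldh1l1 fell, as given above. Among 5 folate and serine carriers 2 rose and 2 fell, with Sfxn1, a mitochondrial serine carrier, at 0.67, Sfxn3 at -0.56 and Slc46a1, the proton-coupled folate transporter, at -0.80. Of 3 tested genes of the glycine cleavage system 1 rose, Dld (0.43). Of 6 tested genes that use serine, Sptlc2 rose (0.32), and Sptlc1 (-0.55) and Ptdss2 (-0.49) fell. Sptlc1 and Sptlc2 encode subunits of serine palmitoyltransferase, and Ptdss2 a phosphatidylserine synthase. All genes named in these lists had edgeR's adjusted p-values under 0.05, but of those named here the call of Aldh1l1 alone held with each library left out in turn.

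In the methionine cycle and transsulfuration, 3 of 7 tested genes rose and 1 fell. Cth, the enzyme that makes cysteine from cystathionine, rose from 0.0860 ± 0.0943 to 0.914 ± 0.0778 FPKM (log2 fold change 3.52 ± 0.901, edgeR's adjusted p = 0.0168). Ahcyl1 (1.69) and Mtrr, the reductase that keeps methionine synthase active (1.52), rose as well. In proline, glutamate and aspartate metabolism, 5 of 13 rose and 5 fell. Aldh18a1, the enzyme that starts proline synthesis from glutamate, rose from 5.46 ± 2.16 to 25.2 ± 6.16 FPKM (2.35 ± 0.245, edgeR's adjusted p = 0.00054), and Gpt2, a mitochondrial alanine transaminase, rose by 1.66 ± 0.115 (edgeR's adjusted p = 0.000158). Glul, glutamine synthetase, fell by 2.23 on the log2 scale (edgeR's adjusted p = 0.00113). Of 8 tested genes of purine synthesis 1 rose, Prps1, which makes the ribose phosphate donor (1.16 ± 0.329, edgeR's adjusted p = 0.0253). The calls of Ahcyl1, Mtrr, Aldh18a1, Gpt2 and Glul held with each library left out, and those of Cth and Prps1 did not.

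**Figure D4:**
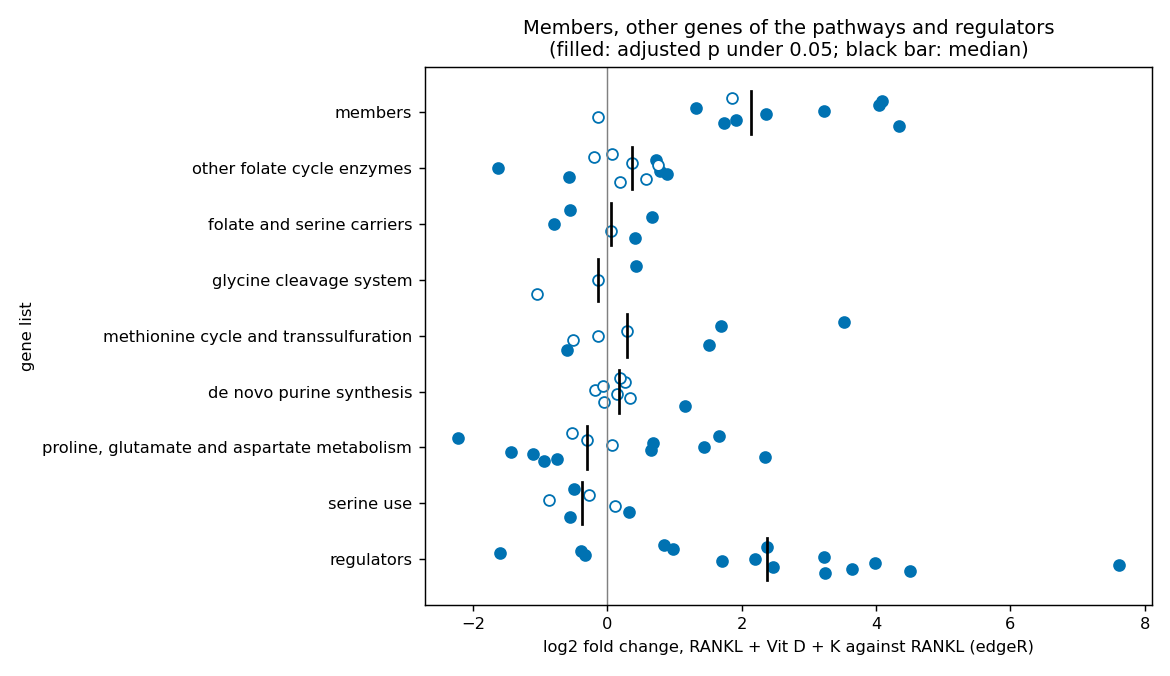
Log2 fold change of the RANKL + Vit D + K group against the RANKL group (edgeR) for the members, 7 lists of other genes of these pathways and a list of regulators, filled where the adjusted p was under 0.05, with the median of each list as a black bar. The medians of the members (2.14) and of the regulators (2.37) lie apart from those of the other lists, which lie between -0.38 and 0.37.

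Of 15 genes of the integrated stress response and related regulators, 12 rose with the vitamins over RANKL and 3 fell, beside 16.4% and 17.2% of all genes tested. The 3 that fell were Eif2ak1 (-0.33), Eif2ak2 (-1.60) and Eif2ak3 (-0.40), which encode kinases of the translation factor eIF2, while Eif2ak4, the fourth such kinase, rose (0.98, edgeR's adjusted p = 0.00939). Atf4 went from 38.6 ± 8.07 to 322 ± 97.8 FPKM (3.24 ± 0.273, edgeR's adjusted p = 0.00027), Ddit3 from 5.03 ± 0.293 to 101 ± 28.6 (4.50 ± 0.272, adjusted p = 0.00012) and Trib3, a target of both, from 0.607 ± 0.201 to 108 ± 18.4 (7.62 ± 0.316, adjusted p = 2.08e-05). In RANKL + Vit D + K replicates 1 to 3 Atf4 had 408, 216 and 343 FPKM, Ddit3 122, 68.7 and 113, and Trib3 123, 87.4 and 114, the lowest being replicate 2 each time. Chac1 (5.69, 35.5 and 6.26) and Sesn2 (20.2, 31.5 and 21.4), from the same list, were highest there. Of the 15 calls 10 held with each library left out, and those of Eif2ak1, Eif2ak2, Eif2ak3, Myc and Nfe2l2 did not. With RANKL over PBS 1 of the 15 rose and 2 fell, beside 2.35% and 1.26% of all genes. The gene that rose was Myc, a transcription factor of cell growth (3.93 ± 0.719, edgeR's adjusted p = 0.0217), which had 0.217, 0.636 and 0.345 FPKM in PBS, 4.0, 14.0 and 2.57 in RANKL, and 48.1, 18.5 and 25 with the vitamins. RANKL replicate 2 was the highest of its group for Myc, as it was for the members, and no group of Myc values overlapped another. RANKL replicate 2 was also the highest for Atf4 (33.9, 48.0 and 34.1 FPKM in replicates 1 to 3), Ddit3 (4.84, 5.37 and 4.88) and Trib3 (0.375, 0.725 and 0.721). Atf5, Sesn2, Nfe2l2, Eif2ak2 and Eif2ak4 were highest in RANKL replicate 3. Over PBS, Atf5 fell with RANKL (-1.25, edgeR's adjusted p = 0.0193). Atf4 (-0.51, edgeR's adjusted p = 0.329) and Ddit3 (-0.27, 0.617) did not pass and Trib3 fell (-1.28, 0.0301).

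**Figure D5:**
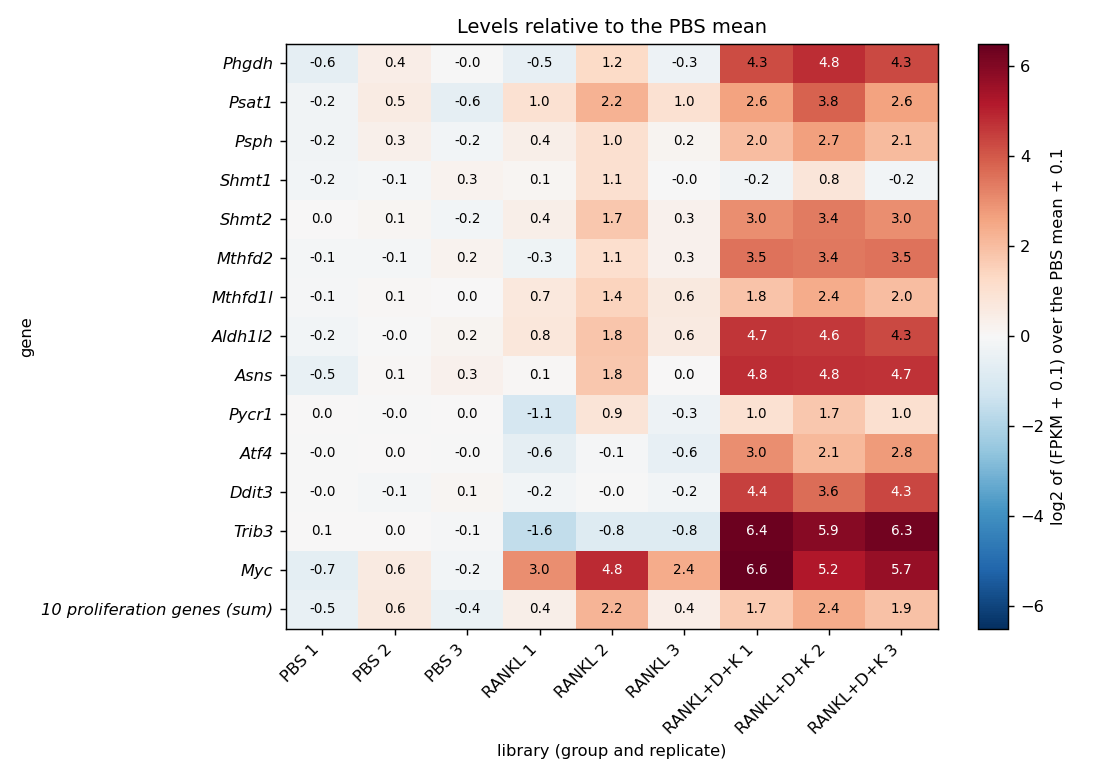
Log2 of FPKM + 0.1 over the PBS mean + 0.1 in each library for the 10 members, Atf4, Ddit3, Trib3 and Myc, and the summed FPKM of 10 proliferation genes. The 3 stress genes, Myc and 9 of the 10 members, Shmt1 being the exception, are above the PBS mean in all 3 RANKL + Vit D + K columns, and the 10 members, Myc and the proliferation sum, but not Atf4, Ddit3 or Trib3, are higher in RANKL replicate 2 than in the PBS mean. Within the RANKL columns, replicate 2 is also the highest for Atf4, Ddit3 and Trib3.

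The summed FPKM of the 10 members was 22.7, 27.4 and 25.9 in PBS, 30.0, 75.8 and 31.7 in RANKL, and 295, 341 and 285 in RANKL + Vit D + K. That of 10 proliferation genes was 48.7, 106 and 49.9 in PBS, 87.9, 315 and 91.5 in RANKL, and 225, 364 and 254 with the vitamins. RANKL replicate 2 had a proliferation sum within the range of the vitamin libraries and a member sum below all of them. Of the 10 proliferation genes, 10 were higher with the vitamins than in PBS, as were 19.8% of all genes tested, and 0 passed edgeR's test between the vitamins and RANKL, where 16.4% of all genes rose. In that comparison 3 had an unadjusted p under 0.05, DESeq2 called 2 higher and limma 0. Without RANKL replicate 2, however, 8 of the 10 proliferation genes were higher with the vitamins than with RANKL, beside 9 of the 10 members and 14.2% of all genes. Without replicate 2 of every group, 10 of the 10 proliferation genes were higher with the vitamins than with RANKL and 9 of the 10 were higher with RANKL than in PBS, beside 24.6% and 5.73% of all genes. Between RANKL and PBS edgeR called 0 of them, with 6 at an unadjusted p under 0.05, and DESeq2 called 5 higher. Neutrophil markers, which had 6 of 7 genes lower with the vitamins than with RANKL, beside 17.2% of all genes, ran from 11.3 to 148 FPKM among RANKL libraries. RANKL replicates 1 and 3 differed in that sum (90.5 and 11.3), and their member sums were 30.0 and 31.7. The part of these marker genes in the members' changes was not tested.

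Across the 9 libraries, each gene's log2 CPM was set beside the mean of the members' standardised log2 CPM, which the member itself enters. Pearson's r over the 9 libraries, which share their groups, was 0.988 for Shmt2, 0.981 for Psph, 0.977 for Mthfd1l, 0.976 for Asns, 0.971 for Phgdh, 0.968 for Aldh1l2, 0.96 for Mthfd2 and 0.947 for Psat1. It was 0.804 for Pycr1 and 0.374 for Shmt1, the member that followed the others least.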

How the data were processed

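The authors deposited 1 table for all 9 libraries with whole-number counts per gene, not normalized. The same table holds the FPKM values that the authors computed. The submitters' processing notes name cutadapt 1.9, HISAT2 2.0.4, StringTie 1.3.4d and edgeR, and the build hg38, although the gene identifiers are those of mouse: of 27256 genes, 90.5% have the start and end of GENCODE M21 (GRCm38), and positions are printed from the table. The program that counted and its use of strand are not given in the sources used here. Poly(A) RNA was sequenced as paired ends. The value 4 occurred 2.22 times more often than the average of the values 3 and 5, and single counts may therefore not be independent reads.

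Libraries were grouped by their labels. Counts were filtered by filterByExpr (17002 of 28379 genes left), scaled by TMM and compared by edgeR's quasi-likelihood test (edgeR 4.0.16, R 4.3.3) in 1 model of the 9 libraries, with Benjamini-Hochberg adjustment over all genes tested and a threshold of 0.05. Each SE was obtained as the absolute log2 fold change over the square root of the F statistic. Ratios of FPKM + 0.1 were compared by the exact permutation test. With 3 libraries a group, edgeR's test on simulated counts of the vitamins against RANKL comparison called 28.3% of 92 genes changed 2-fold and 69.4% of 108 changed 4-fold among 17002 genes, and 7 of 16802 unchanged ones.

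The replicate numbers come from the labels. The correlation across genes of deviations from the group means, for the same number, was 0.122, 0.219 and 0.155 between PBS and RANKL, so these numbers were taken to pair the libraries. It was 0.00625, 0.0428 and 0.107 between RANKL and RANKL + Vit D + K, and -0.0216, 0.0217 and 0.0237 between PBS and RANKL + Vit D + K, where they were not.

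Named were the 10 members, the relatives in 4 pairs (1 further pair is not reported here), in each list of neighbouring genes up to 3 called genes with the largest change with the vitamins over RANKL, Atf4, Ddit3 and Trib3, and the 5 genes outside the lists most like the members. Atic, Atf5, Chac1, Sesn2, Nfe2l2, the 4 Eif2ak genes, the genes that overlap a member, and Myc were named after their values were seen. The members and lists were chosen with earlier results of these data known. Alternatives were DESeq2 1.42.0, limma 3.58.1 on log2(FPKM + 0.1) and log2(FPKM + 1), median-of-ratios factors, other filters, only the 2 groups compared, the replicate block, counts divided by 2, each library left out, other pseudocounts for the ratios and, chosen after the data were seen, replicate 2 of all groups left out.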

Additional observations from a re-analysis of the deposited data

How the results depend on the processing

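The number of members called with the vitamins was 7 to 9 of 10 over RANKL and 8 to 9 over PBS on every alternative, each library left out in turn included. The number with RANKL over PBS (1) was 3 with DESeq2, 2 with a CPM of at least 1 in 3 libraries, with counts divided by 2, with the replicate block and without replicate 2 of every group, 0 without a filter on low counts and with limma on log2(FPKM + 0.1) or log2(FPKM + 1), and 0 to 3 with a library left out. Those called with the block, with only the 2 groups compared and without replicate 2 did not include Aldh1l2. Of the neighbouring genes, 1 was called with RANKL over PBS, but 9 with DESeq2, 6 with only the 2 groups compared, 4 with the block, 0 to 8 with a library left out and 10 without replicate 2. The calls over all genes moved too, from 3.61% to 9.99%, 10.6% and 4.85%, to 0.709 to 10.7% with a library left out and to 10.1%. With the vitamins over RANKL 28 were called, 12 with only the 2 groups compared, 11 to 33 with a library left out (11 without RANKL replicate 1 or RANKL + Vit D + K replicate 1 or 3, 13 without RANKL replicate 3) and 38 without replicate 2. Over all genes 33.7% were called, 23.9% with only the 2 groups, 18.1 to 46.4% with a library left out and 52% without replicate 2. The replicate block changed no other call of a member: it gave 8 members and 27 neighbouring genes over RANKL with the vitamins and 8 and 33 over PBS. For the ratios, exact sign-flip permutation tests of the 3 numbered pairs cannot go below p = 0.25.

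Fold changes that turned sign had not passed the test. Over the libraries left out, with RANKL over PBS, Phgdh ranged from -0.54 (without RANKL replicate 2; -0.27 without replicate 2 of every group) to 0.58, Shmt1 from -0.096 (without replicate 2; -0.019 without RANKL replicate 2) to 0.59, Mthfd2 from -0.15 (without replicate 2; -0.066 without RANKL replicate 2) to 0.58, and Asns from -0.021 (without RANKL replicate 2) to 0.999. With RANKL over PBS, Pycr1 ranged from -1.41 with 1 library left out (-1.44 over all alternatives) to 0.43 (without RANKL replicate 1; 0.12 without RANKL replicate 3, 0.0078 without PBS replicate 3). Shmt1 ranged from -0.47 to 0.23 (without RANKL replicate 2) with the vitamins over RANKL, and from -0.20 (without replicate 2; -0.12 without RANKL + Vit D + K replicate 2) to 0.44 over PBS. Of the ratios, those of RANKL against PBS turned: Mthfd1l over Mthfd1 (-0.031 with a pseudocount of 1; -0.011 without PBS replicate 1, to 0.17) and Aldh1l2 over Aldh1l1 (-0.39 with a pseudocount of 1; -0.085 without RANKL replicate 2, to 0.59). The cause was not tested. The libraries held 5, 101 and 30 counts of Pycr1 in RANKL, and 12, 21 and 31 of Aldh1l2 in PBS.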

Other observations

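The 5 genes outside the lists whose log2 CPM over the 9 libraries was most like the members' mean were Pgk1 (Pearson's r = 0.996), Gfra1 (0.994), Rtel1 (0.986), Nup205 (0.985) and Mical3 (0.985). Pgk1, the glycolytic enzyme whose product is the substrate of PHGDH, had a mean FPKM of 139 in PBS, 184 in RANKL and 306 in RANKL + Vit D + K, with a log2 fold change of 0.88 ± 0.154 with the vitamins over RANKL (edgeR's adjusted p = 0.00374). Nup205, a nuclear pore protein, had 3.92, 6.5 and 13.8 FPKM. Rtel1, a DNA helicase, had 2.57, 3.48 and 5.05. Mical3 had 0.341, 0.464 and 0.732. Gfra1 was listed at 0 in PBS and at a mean of 0.00601 and 0.0807 FPKM in the other groups, too low to compare, and it did not pass edgeR's test (adjusted p = 0.0733). With 3 groups of 3 libraries, such correlations mostly describe group means and are given as a description.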
